A study of Mus musculus with 6 samples.

Results

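The genes described here are 9 members of the sphingosine-1-phosphate (S1P) system, taken by name from the 24346 gene symbols measured in tumor ECs: the receptor genes S1pr1, S1pr2, S1pr3 and S1pr4, the kinase genes Sphk1 and Sphk2, the exporter gene Spns2, and Sgpl1 and Sgpp1, which encode enzymes that remove S1P. The family was selected on the FPKM of S1pr3, which were higher in Apelin-KO than in WT ECs in these same 6 samples, so the differences between genotypes are given as a description, without a test. C57BL/6 WT mice and Apelin-KO mice on the C57BL/6 background, 8 to 10 weeks old, were inoculated subcutaneously with MC38 murine colon carcinoma cells. The knockout mice lack Apelin from embryogenesis on and not only in ECs. CD31+ CD45- cells were sorted from the tumors, and their mRNA was sequenced for 3 WT and 3 Apelin-KO samples. The sample titles of both groups also name saline, and they do not say that each sample came from a different mouse, so the spread between samples may be partly technical.

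S1P is a lipid mediator that is made inside cells when a sphingosine kinase phosphorylates sphingosine. ECs release it through the transporter SPNS2, and it then acts on G-protein-coupled receptors at the cell surface, while S1P lyase cleaves it irreversibly and S1P phosphatases return it to sphingosine. In blood vessels, S1PR1 signals through Gi and Rac to hold EC junctions together and to limit sprouting, whereas S1PR2 and S1PR3 also couple to other G proteins. The gradient of S1P between blood and tissue guides the egress of lymphocytes from lymphoid organs.

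Depth is not given in the files and was estimated at 8990000 to 10270000 reads per sample. Apln, the gene removed in the knockout, was 432 to 504 FPKM (fragments mapped, scaled to transcript length and to the mapped reads of the sample) in the WT samples and 9.96 to 24.3 FPKM in the Apelin-KO samples. Its log2 difference, Apelin-KO minus WT on the log2(FPKM + 1) scale, was -4.73 (SE 0.29, Benjamini-Hochberg adjusted p = 0.00747, limma). Apln was the only gene called at an adjusted p-value under 0.05, or 0.00912% of the 10964 genes whose mean reached 1 FPKM. Without WT 2 or without Apelin-KO 2 no gene was called, Apln included, with 538 and 1169 genes at an unadjusted p-value under 0.05, and without WT 1, 3 genes were called. At an unadjusted p-value under 0.05, 4.25% of the genes were higher and 5.17% lower in Apelin-KO ECs. The endothelial identity of the cells was seen in 10 marker genes such as Pecam1, Cdh5 and Tie1, whose FPKM summed to 3736 to 4420 in WT and 4572 to 4784 in Apelin-KO samples. Hematopoietic marker genes summed to 177 to 604 FPKM in WT and 77.8 to 207 FPKM in Apelin-KO samples, although CD45+ cells were gated out.

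S1pr3 spans bases 51408639 to 51422797 of the plus strand of chromosome 13 (GRCm38), with 1 annotated transcript of 2 exons and 4463 bases. The windows around annotated starts of S1pr3, S1pr2 and Sgpp1 are shown, the first because this gene set the family apart, the others because their levels followed each other over the samples. They run 5′ to 3′ on the gene's strand from 250 bases before to 50 bases after the start and come from RefSeq on GRCm38.p6. The set of windows used here held 8 of the 9 members and no window for S1pr1. Capitals mark every GC box (GGGCGG) and every CACCC box (CACCC) on either strand, and the 2 motifs share no base in these windows. The windows lie at chr13:51408368-51408667 on the plus strand (S1pr3), chr9:20976744-20977043 on the minus strand (S1pr2) and chr12:75735680-75735979 on the minus strand (Sgpp1).
S1pr3: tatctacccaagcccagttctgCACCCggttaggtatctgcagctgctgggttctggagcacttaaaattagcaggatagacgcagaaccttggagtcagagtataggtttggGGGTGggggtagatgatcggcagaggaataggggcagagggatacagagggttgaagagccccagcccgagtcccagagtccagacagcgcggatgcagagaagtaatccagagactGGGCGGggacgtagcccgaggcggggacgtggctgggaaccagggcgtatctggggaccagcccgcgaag
S1pr2: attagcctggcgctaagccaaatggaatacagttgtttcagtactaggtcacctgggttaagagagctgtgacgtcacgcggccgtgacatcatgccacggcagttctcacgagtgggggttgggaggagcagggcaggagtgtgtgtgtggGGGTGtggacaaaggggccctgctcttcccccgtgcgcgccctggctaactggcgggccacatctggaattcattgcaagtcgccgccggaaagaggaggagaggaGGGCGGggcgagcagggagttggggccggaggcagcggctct
Sgpp1: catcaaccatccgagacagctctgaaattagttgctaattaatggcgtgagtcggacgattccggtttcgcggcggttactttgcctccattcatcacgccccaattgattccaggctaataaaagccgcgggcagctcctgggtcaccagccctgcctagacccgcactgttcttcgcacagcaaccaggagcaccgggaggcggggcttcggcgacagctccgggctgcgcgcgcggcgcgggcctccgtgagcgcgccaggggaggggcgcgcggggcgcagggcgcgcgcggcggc
The S1pr3 window held 1 GC box and 2 CACCC boxes, and the S1pr2 window held 1 of each. The Sgpp1 window held neither of these letter strings. A GC box was found in 35.7% and a CACCC box in 57.5% of all 32851 windows in the table, so both strings are common in such windows. GC content was 59.0% for S1pr3, 62.0% for S1pr2 and 66.0% for Sgpp1, against a median of 52.7% over all windows.

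The 9 genes spanned a wide range of levels in tumor ECs. FPKM is scaled to transcript length, so levels can be set side by side between genes. By mean FPKM over the 6 samples the order was S1pr1 (457), Spns2 (78.6), Sgpl1 (29.6), S1pr2 (8.76), Sphk2 (7.57), Sgpp1 (7.04), S1pr4 (4.32), Sphk1 (2.24) and S1pr3 (1.58). The genotypes shared the first 3 places and that of S1pr4. In WT the order in between was S1pr2 (10.1), Sgpp1 (8.44) and Sphk2 (7.26), and in Apelin-KO it was Sphk2 (7.89), S1pr2 (7.45) and Sgpp1 (5.63). S1pr3 was below Sphk1 in WT (0.782 and 2.18 FPKM) and just above it in Apelin-KO ECs (2.38 and 2.29 FPKM).

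**Figure D1:**
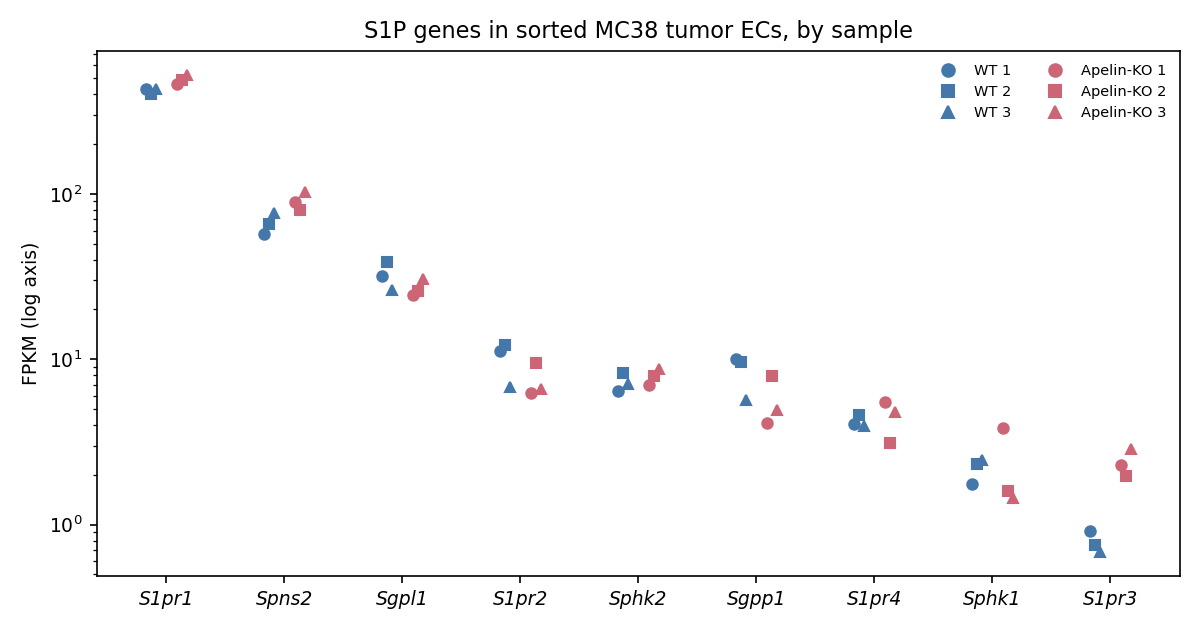
FPKM on a log axis for each of the 9 S1P genes, ordered by mean, with 1 point per sample (blue WT, red Apelin-KO, symbol by replicate number). S1pr1 stood above the others in every sample at 401 to 526 FPKM, and S1pr3 is the gene whose genotypes are farthest apart.

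S1pr1 was higher than Spns2, the next gene, in 6 of 6 samples, by 5.89-fold on average. Neighbours in the order were compared over the 6 samples with an exact sign-flip permutation test (two-sided, log2 ratio with 0.1 added to FPKM, 8 pairs, Benjamini-Hochberg adjusted), whose smallest possible p-value is 0.031. The steps from S1pr1 to Spns2, from Spns2 to Sgpl1, from Sgpl1 to S1pr2 and from S1pr4 to Sphk1 all ran the same way in 6 of 6 samples (exact p = 0.031, adjusted p = 0.0625 for each). S1pr2 lay above Sphk2 in 3 samples (exact p = 0.4375), Sphk2 above Sgpp1 in 4 (exact p = 0.46875) and Sgpp1 above S1pr4 in 5 of the 6 samples (exact p = 0.09375), so the order of these neighbours varied between samples. None of these steps passed an adjusted p-value under 0.05, and the pairs were set by the means of these same 6 samples. Sphk1 was above S1pr3 in 3 of 3 WT samples and in 1 of 3 Apelin-KO samples, and no test is read for this pair, since the FPKM of S1pr3 chose the family.

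Of the 4 receptor genes, S1pr3 and S1pr1 were higher in all Apelin-KO samples than in any WT sample. S1pr3, which encodes a receptor that couples to several G proteins and is also known from smooth muscle, was 0.915, 0.748 and 0.684 FPKM in WT 1, 2 and 3, against 2.31, 1.97 and 2.85 FPKM in Apelin-KO 1, 2 and 3. The lowest Apelin-KO sample thus stood above the highest WT sample, with means of 0.782 ± 0.119 FPKM in WT and 2.38 ± 0.445 FPKM in Apelin-KO (SD, n = 3 each), a ratio of 3.04. The log2 difference was 0.92 (SE 0.13), a scale on which the pseudocount of 1 understates the change of a gene this low. WT samples alone would not have reached the filter of 1 FPKM, so S1pr3 entered the fit through its level in Apelin-KO ECs. On its 4463-base transcript that is about 39.5, 28.7 and 26.6 reads in the WT and 91.8, 86.3 and 114.5 reads in the Apelin-KO samples by the depth estimate. Exons of S1pr3 overlap those of Gm32834 on the opposite strand, a gene that was not analysed here, and the strand setting of the authors' counting is not given in the sources used here.

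S1pr1, the main S1P receptor of ECs, lies on chromosome 3 from 115710433 to 115715072 on the minus strand. It was 433, 401 and 433 FPKM in WT 1, 2 and 3, against 460, 490 and 526 FPKM in Apelin-KO 1, 2 and 3. The groups did not overlap, but the step was small, from 422 ± 18.5 to 492 ± 33.5 FPKM (SD, n = 3 each), a ratio of 1.17 and a log2 difference of 0.22 (SE 0.10). With every sample scaled to the same summed FPKM, WT 1 was at 449.6 and Apelin-KO 1 at 442.8, so S1pr1 overlapped on that scale, whereas S1pr3 and Spns2 did not.

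S1pr2, the receptor gene on chromosome 9 from 20962361 to 20976781, was 11.3, 12.2 and 6.78 FPKM in WT 1, 2 and 3, against 6.27, 9.51 and 6.57 FPKM in Apelin-KO 1, 2 and 3. WT 3 lay among the Apelin-KO samples, so the groups overlapped, at a log2 difference of -0.37 (SE 0.24). S1pr4, a receptor gene known mainly from lymphoid and myeloid cells, was 4.031, 4.596 and 3.920 FPKM in WT 1, 2 and 3, against 5.54, 3.10 and 4.76 FPKM in Apelin-KO 1, 2 and 3, with overlapping groups and a log2 difference of 0.05 (SE 0.18). The part of hematopoietic cells in the values of S1pr4 was not tested. S1pr5, the remaining receptor gene of the family, was listed at 0 in 5 samples and at 0.042 FPKM in Apelin-KO 2.

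S1pr1 made up 95.8% to 97.4% of the FPKM summed over the 5 receptor genes in every sample of either genotype. The share of S1pr3 was 0.154% to 0.204% in WT and 0.391% to 0.527% in Apelin-KO samples. For each unit of S1pr3, WT samples held 473 to 632 units of S1pr1, and Apelin-KO samples held 184.7 to 248.5. The ratio of S1pr2 to S1pr3 was 9.91 to 16.3 in WT and 2.30 to 4.83 in Apelin-KO samples, so that S1pr2 was the higher of the pair in all samples.

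**Figure D2:**
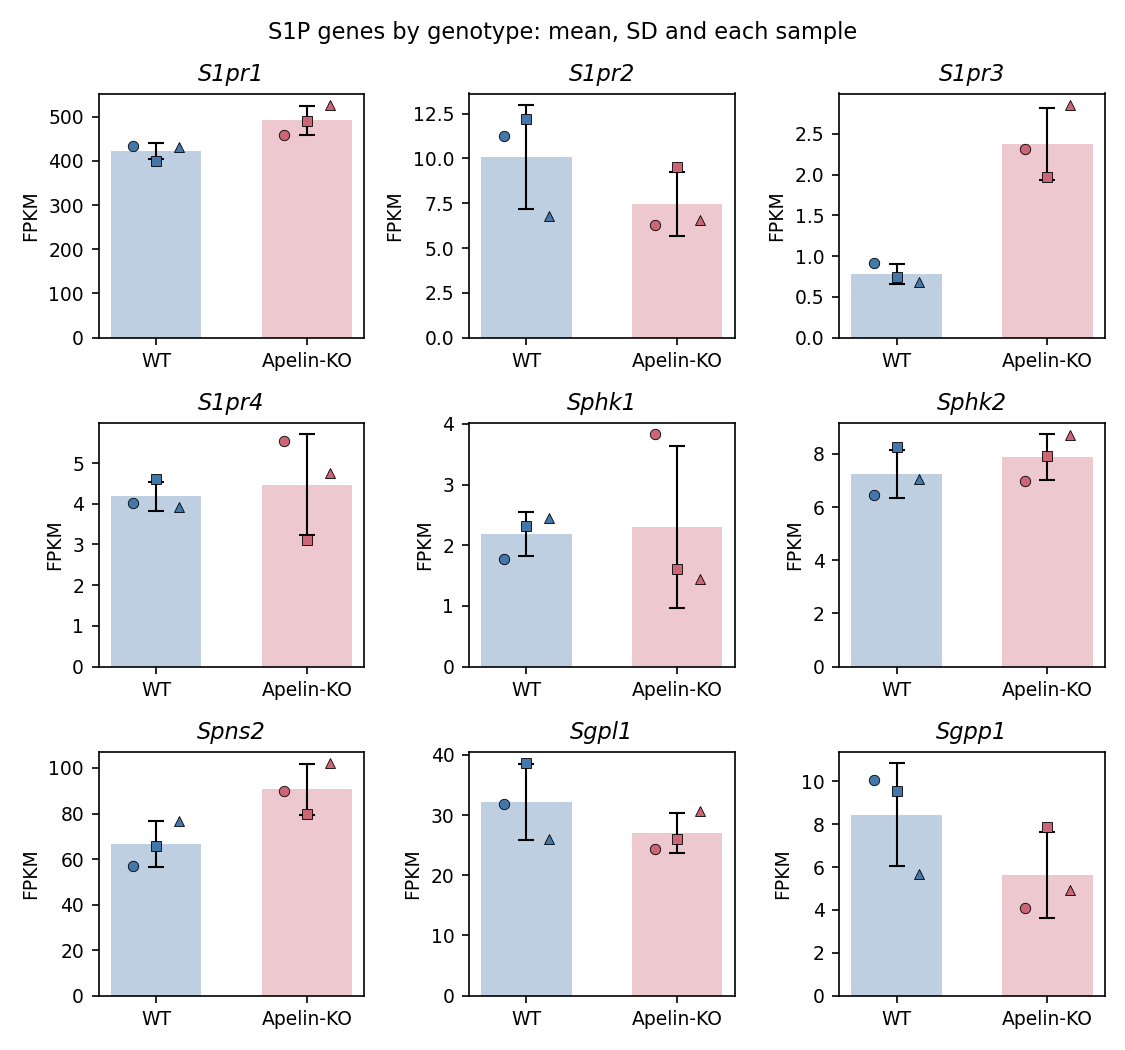
FPKM of each of the 9 S1P genes by genotype, each panel with its own linear axis from 0. Bars are means, error bars are SD (n = 3) and points are samples (circle 1, square 2, triangle 3). S1pr1, S1pr3 and Spns2 show no overlap between genotypes in the deposited FPKM, and in the S1pr2 and Sgpp1 panels WT 3 sits with the Apelin-KO samples.

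Spns2, which encodes the S1P exporter of blood and lymphatic ECs, lies on chromosome 11 from 72451638 to 72489904 on the minus strand. It was 57.2, 65.7 and 76.9 FPKM in WT 1, 2 and 3, against 89.9, 79.7 and 102.1 FPKM in Apelin-KO 1, 2 and 3. All Apelin-KO samples were above all WT samples, with means of 66.6 ± 9.91 and 90.6 ± 11.2 FPKM (SD, n = 3 each), a ratio of 1.36 and a log2 difference of 0.44 (SE 0.15). WT 3 and Apelin-KO 2, the nearest samples across the groups, were closer together than the SD within either group. Exons of Spns2 overlap those of Mybbp1a on the opposite strand.

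The kinase genes showed overlapping genotypes. Sphk1, the kinase gene known to respond to growth factors, was 1.77, 2.32 and 2.45 FPKM in WT 1, 2 and 3, against 3.83, 1.60 and 1.45 FPKM in Apelin-KO 1, 2 and 3. Apelin-KO 1 was the highest and Apelin-KO 3 the lowest of the 6 samples, and the log2 difference was -0.01 (SE 0.26). Sphk2, whose product is found in the nucleus and at mitochondria, was steadier at 6.46, 8.25 and 7.07 FPKM in WT 1, 2 and 3, against 7.002, 7.939 and 8.720 FPKM in Apelin-KO 1, 2 and 3, with a log2 difference of 0.11 (SE 0.13). Sphk2 exceeded Sphk1 in all samples, by 2.89-fold to 3.65-fold in WT and by 1.83-fold to 6.02-fold in Apelin-KO ECs. Exons of Sphk2 overlap those of Dbp and Rpl18 on the opposite strand, and exons of Sphk1 overlap those of Gm29292, which was not analysed here.

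The genes of S1P removal had lower means in Apelin-KO ECs, with overlapping groups. Sgpl1, the S1P lyase gene, on chromosome 10 from 61098642 to 61147703, was 31.8, 38.6 and 26.1 FPKM in WT 1, 2 and 3, against 24.4, 26.0 and 30.7 FPKM in Apelin-KO 1, 2 and 3, with a log2 difference of -0.23 (SE 0.16). Sgpp1, the S1P phosphatase gene on chromosome 12 from 75714249 to 75735729, was 10.1, 9.56 and 5.67 FPKM in WT 1, 2 and 3, against 4.09, 7.89 and 4.93 FPKM in Apelin-KO 1, 2 and 3, with a log2 difference of -0.51 (SE 0.27). Apelin-KO 2 lay above WT 3 for Sgpp1, and Apelin-KO 3 lay above WT 3 for Sgpl1.

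In all, 3 of the 9 members had groups that did not overlap, all 3 higher in Apelin-KO ECs, where 7.77% of the genes tested were higher and 6.61% lower without overlap, 14.4% in either direction. Because the contrast chose the family, nothing is read from this count. Across the 9 members 5 log2 differences were above 0 and 4 below, with a median of 0.05, beside 52.5% above 0 and a median of 0.01 over all genes tested. Without WT 3, S1pr2, Sgpl1 and Sgpp1 no longer overlapped either and were lower in Apelin-KO ECs, for 6 members in all, where 15.8% of the genes tested were then higher and 14.1% lower without overlap. Without Apelin-KO 2, S1pr4 was higher and S1pr2 and Sgpp1 were lower, again 6 members in all, beside 14.9% higher and 12.6% lower over the genes tested.

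The summed level of the endothelial marker genes was, like S1pr1 and Spns2, higher in every Apelin-KO sample than in any WT sample. All 10 genes had a log2 difference above 0 with a median of 0.21, from 0.07 for Egfl7 and Emcn to 0.46 for Cdh5, and none was at 0 in all samples. The genotypes overlapped for 7 of the 10 and did not for 3, all higher in Apelin-KO samples, beside 7.77% of all genes tested. Of these 3, Pecam1, an adhesion molecule gene of ECs, was 604 ± 60.5 FPKM in WT and 760 ± 79.5 FPKM in Apelin-KO samples. Cdh5, the VE-cadherin gene, was 180 ± 30.6 and 248 ± 40.3 FPKM, and Tie1, an endothelial receptor kinase gene, was 296 ± 26.3 and 372 ± 32.0 FPKM (SD, n = 3 each). None of the 10 passed an adjusted p-value under 0.05 in limma, with 3 higher at an unadjusted p-value under 0.05, beside 4.25% of all genes tested. In bulk samples a larger share of ECs and more RNA of a gene per EC cannot be told apart.

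As a percentage of the endothelial marker sum, S1pr1 was 10.7%, 10.7% and 9.79% in WT 1, 2 and 3, against 9.64%, 10.7% and 11% in Apelin-KO 1, 2 and 3, so the genotypes overlapped on this scale. Spns2 was 1.42%, 1.76% and 1.74% in WT 1, 2 and 3, against 1.89%, 1.74% and 2.13% in Apelin-KO 1, 2 and 3, which overlapped as well. S1pr3 was 0.0155% to 0.0227% in WT and 0.0431% to 0.0596% in Apelin-KO samples and did not overlap. Scaled to this sum, an alternative chosen after seeing the data, the log2 difference of S1pr3 was 0.79 and that of S1pr1 was 0.0035, beside a median of -0.18 over all genes tested.

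**Figure D3:**
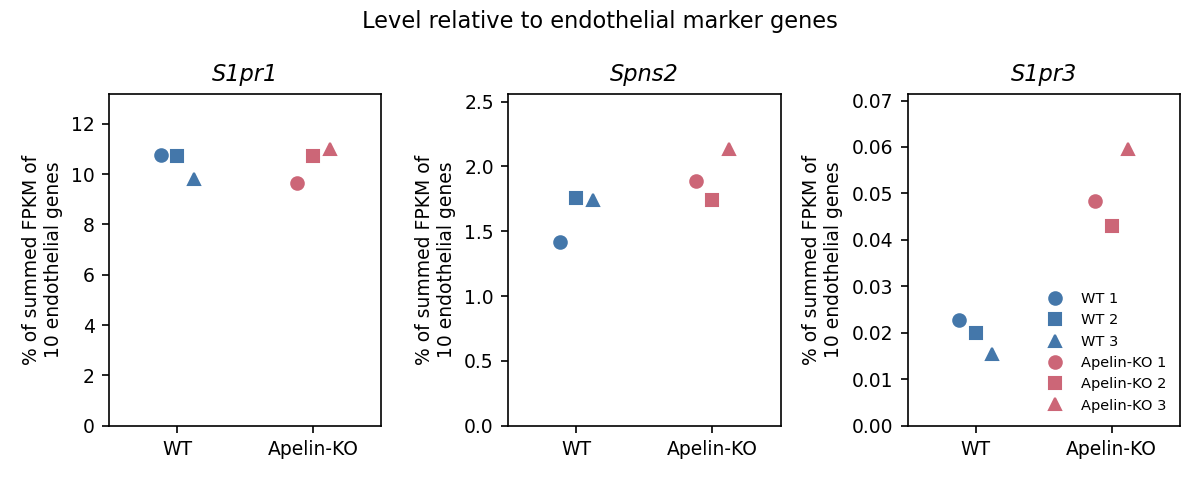
FPKM of S1pr1, Spns2 and S1pr3 as a percentage of the summed FPKM of 10 endothelial marker genes, by genotype, 1 point per sample on linear axes from 0. The genotypes overlap for S1pr1 and Spns2, and for S1pr3 the Apelin-KO samples at 0.0431% to 0.0596% sit above the WT samples at 0.0155% to 0.0227%.

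S1pr3 is also known from mural cells, the pericytes and smooth muscle cells around vessels. The 11 pericyte and smooth muscle marker genes summed to 583 to 751 FPKM in WT and 652 to 762 FPKM in Apelin-KO samples, which overlapped, and none was at 0 in all samples. Mcam alone was 438 to 566 FPKM in WT and 436 to 571 FPKM in Apelin-KO samples. The sum therefore mostly follows Mcam and says little about the rest of the list. Of the 8 that were tested, 5 had a log2 difference above 0 and 3 below, with a median of 0.25. Rgs5, a pericyte marker gene, was 3.44 ± 0.246 FPKM in WT and 7.78 ± 0.923 FPKM in Apelin-KO ECs (SD, n = 3 each, adjusted p = 0.214 from limma), with no overlap. Des was 0.206 to 0.645 FPKM in WT and 0.773 to 0.966 FPKM in Apelin-KO samples, also without overlap. The other 9 overlapped, among them Mcam, the highest of the list, at 513 ± 67.0 and 510 ± 68.2 FPKM, Kcnj8 at 77.8 ± 12.1 and 93.3 ± 13.03 FPKM, and Pdgfrb at 5.96 ± 1.39 and 7.42 ± 0.813 FPKM (SD, n = 3 each). Cspg4, at 2.50 ± 0.906 FPKM in WT and 1.67 ± 0.177 FPKM in Apelin-KO samples, and Tagln, at 7.003 ± 1.54 and 5.45 ± 0.894 FPKM (SD, n = 3 each), had lower means in Apelin-KO samples. Myh11, which marks smooth muscle, was 0.105 ± 0.0135 and 0.357 ± 0.362 FPKM (SD, n = 3 each). The ratio of S1pr3 to Rgs5 was 0.263, 0.236 and 0.187 in WT 1, 2 and 3, against 0.338, 0.251 and 0.329 in Apelin-KO 1, 2 and 3, so the genotypes overlapped on that scale. The part of mural cells in the difference of S1pr3 was not tested.

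The other marker lists ran differently. All 8 tested hematopoietic marker genes had a log2 difference below 0 with a median of -1.21, the sums overlapped between genotypes, and none of the 10 was at 0 in all samples. Their sums were 331, 604 and 177 FPKM in WT 1, 2 and 3, against 77.8, 207 and 191 FPKM in Apelin-KO 1, 2 and 3, so that, as for S1pr2 and Sgpp1, WT 1, WT 2 and Apelin-KO 2 were the 3 highest samples. Ptprc, which encodes CD45, was 3.08 ± 1.79 FPKM in WT and 0.826 ± 0.829 FPKM in Apelin-KO samples (SD, n = 3 each). The part of hematopoietic cells in the values of S1pr2 and Sgpp1 was not tested. Fibroblast markers summed to 192 to 332 FPKM in WT and 125 to 197 FPKM in Apelin-KO samples, with all 5 tested genes at a log2 difference below 0 and a median of -0.73. Dcn, the decorin gene, was 35.8 ± 5.48 FPKM in WT and lower without overlap at 19.5 ± 5.35 FPKM in Apelin-KO samples (SD, n = 3 each, adjusted p = 0.501 from limma), while Fap, too low to be tested, was higher without overlap at 0.0847 ± 0.0454 and 0.411 ± 0.0670 FPKM (SD, n = 3 each). Lymphatic endothelial markers summed to 127 to 264 FPKM in WT and 136 to 222 FPKM in Apelin-KO samples, and erythroid and platelet markers to 27.4 to 66.1 and 44.3 to 85.3 FPKM. Hbb-bs, a beta-globin gene, was 7.93, 0.023 and 2.62 FPKM in WT 1, 2 and 3, against 19.9, 16.2 and 32.6 FPKM in Apelin-KO 1, 2 and 3, without overlap (adjusted p = 0.501 from limma). Hba-a2, an alpha-globin gene and the highest of that list, overlapped at 28.2 ± 22.4 and 20.2 ± 9.87 FPKM (SD, n = 3 each). The tumor epithelial markers summed to under 1 FPKM in every sample. No gene of any marker list passed the adjusted threshold in limma, and the counts at an unadjusted p-value under 0.05 were 4 lower for hematopoietic (among them Ptprc, which passed the filter only through its WT level), 4 lower for fibroblast, 1 higher for pericyte and 1 higher for erythroid and platelet markers. Over all genes tested, 5.17% were lower and 4.25% higher at that unadjusted threshold.

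S1pr2 and Sgpp1 followed each other over the samples more closely than any other pair of members. WT 1, WT 2 and Apelin-KO 2 were the 3 highest samples for both genes, and Apelin-KO 1 was the lowest for both. On the log2(FPKM + 1) scale over the 6 samples, Pearson's r was 0.97 (exact permutation p = 0.00833, adjusted p = 0.3 over 36 pairs) and Spearman's rho was 0.94 (exact permutation p = 0.0167, adjusted p = 0.4). Without WT 1 and WT 2, the samples farthest from the median of S1pr2, r was 0.95. Of the deviations from each genotype's own mean, r was 0.96. Spns2 ran against Sgpp1 with r = -0.87 (exact permutation p = 0.0278, adjusted p = 0.333), rho = -0.89 (exact permutation p = 0.0333, adjusted p = 0.4) and r = -0.87 without WT 1 and Apelin-KO 3. None of the 36 pairs passed the adjusted threshold.

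**Figure D4:**
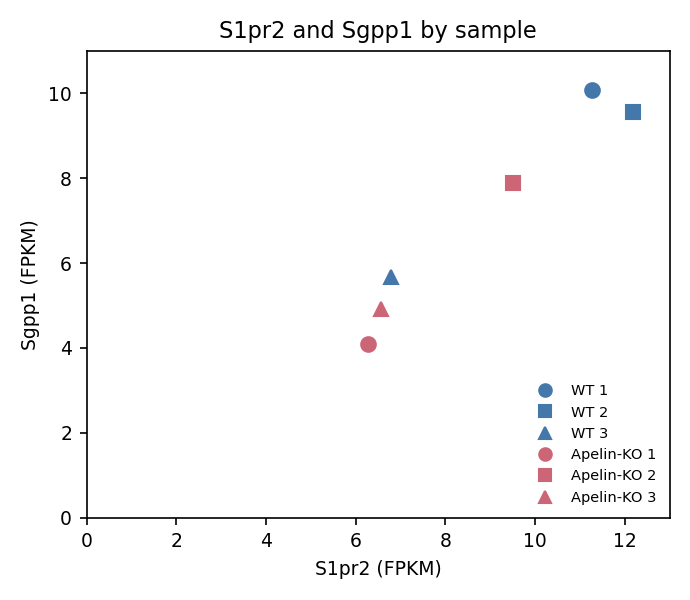
FPKM of Sgpp1 against FPKM of S1pr2 on linear axes from 0, 1 point per sample (blue WT, red Apelin-KO). WT 1, WT 2 and Apelin-KO 2 form the upper right of the plot, and WT 3 lies next to Apelin-KO 1 and Apelin-KO 3.

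The genes most like S1pr3 over the 6 samples, by Pearson's r of log2(FPKM + 1), were Alkbh4, Nfatc1, Cpt1a, C2cd2l and Phc2, with r between 0.98 and 0.99. All 5 were higher in Apelin-KO ECs, by 0.17 to 0.73 on the log2 scale, which this likeness to S1pr3 carries with it. Within genotypes, as deviations from each mean, r was between 0.85 and 0.96 for these genes. Cpt1a, which encodes the enzyme that admits long-chain fatty acids to mitochondria, was 21.0, 20.1 and 19.0 FPKM in WT 1, 2 and 3, against 31.9, 29.2 and 41.6 FPKM in Apelin-KO 1, 2 and 3. The genes most like S1pr1 were Nucb1, Peg13, Slc1a1, Ralgds and Afg3l1, each with r of 0.99. These likenesses rest on 6 samples, and the genes were picked as the highest of all tested.

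The wider sphingolipid and S1P pathway was described with 60 further genes in 4 lists, of which 46 had a mean of at least 1 FPKM. None passed an adjusted p-value under 0.05 in limma (lowest adjusted p = 0.501), while 9 were higher and 2 lower in Apelin-KO ECs at an unadjusted p-value under 0.05. The groups did not overlap for 12 genes higher and 2 genes lower in Apelin-KO ECs, or 26.1% and 4.35% of the 46, beside 7.77% and 6.61% of all genes tested. The median log2 difference was 0.08, beside 0.01 over all genes. Scaled to the endothelial marker sum, 2 pathway genes were higher and 6 lower without overlap, beside 1.15% and 24.4% of all genes tested, and 3 had an unadjusted p-value under 0.05 in place of 11. Without WT 2, 13 were higher and 3 lower without overlap, beside 10.7% and 9.51% of all genes tested, and 2 had an unadjusted p-value under 0.05. Without WT 3, 16 were higher and 7 lower, beside 15.8% and 14.1%, and without Apelin-KO 2, 19 were higher and 4 lower, beside 14.9% and 12.6%.

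Genes of sphingolipid synthesis and turnover made up 6 of those 12. Of 15 tested, 12 had a log2 difference above 0 and 3 below, with 4 higher at an unadjusted p-value under 0.05, beside 4.25% of all genes tested. Sgms1, a sphingomyelin synthase gene, was 30.5 ± 1.41 FPKM in WT and 44.5 ± 6.71 FPKM in Apelin-KO ECs (SD, n = 3 each), a log2 difference of 0.52 (SE 0.13). Sptlc1, which encodes a subunit of the enzyme that starts sphingolipid synthesis, was 33.9 ± 3.70 and 42.5 ± 1.57 FPKM. Cers4, a ceramide synthase gene, was 10.3 ± 1.18 and 13.5 ± 1.98 FPKM. Smpd2, a neutral sphingomyelinase gene, was 13.2 ± 1.55 and 17.2 ± 2.64 FPKM (SD, n = 3 each). The WT and Apelin-KO samples did not overlap for any of these 4 genes, with adjusted p-values of 0.501 to 0.522 in limma.

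Of 10 tested genes that handle S1P and its precursors, 6 had a log2 difference above 0 and 4 below. The groups did not overlap for 1 in each direction, beside 7.77% higher and 6.61% lower over all genes tested. Abca1, a lipid transporter gene, was 34.6 ± 1.97 FPKM in WT and 45.4 ± 9.13 FPKM in Apelin-KO ECs. Acer3, an alkaline ceramidase gene, was 16.7 ± 1.65 and 13.8 ± 0.541 FPKM. Ppap2a and Ppap2b, older symbols of Plpp1 and Plpp3 for lipid phosphate phosphatases that also act on S1P outside cells, were the highest of the list. Ppap2a was 236 ± 36.6 FPKM in WT and 325 ± 71.7 FPKM in Apelin-KO ECs, and Ppap2b was 175 ± 23.5 and 185 ± 22.1 FPKM (SD, n = 3 each), both with overlap. Apom, which encodes the S1P carrier of plasma lipoproteins, was listed at 0 in all samples.

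Among the receptors for lysophosphatidic acid, a related lipid, Lpar1 was 1.70 ± 0.608 FPKM in WT and 0.761 ± 0.169 FPKM in Apelin-KO ECs, and Lpar6 was 58.6 ± 3.16 and 72.4 ± 8.39 FPKM (SD, n = 3 each). Neither pair of groups overlapped, and they differed in opposite directions, with adjusted p-values of 0.501 and 0.522 in limma. Lpar1 passed the filter of 1 FPKM only through its WT level, so its difference is no support for a change. Of 17 tested genes of receptor signalling and regulation, 13 had a log2 difference above 0, and the 4 without overlap, Gna11, Adrbk1, Klf2 and Cdh5 (the last also an endothelial marker above), were all higher in Apelin-KO ECs. Over all genes tested, 52.5% had a log2 difference above 0 and 7.77% were higher without overlap. Klf2, a flow-induced transcription factor gene known to sustain S1pr1, was 135 ± 15.1 FPKM in WT and 163 ± 13.2 FPKM in Apelin-KO ECs (SD, n = 3 each, adjusted p = 0.543 in limma). Gnai2 and Rac1, which act below S1PR1, were the most abundant of the list. Gnai2 was 733 ± 82.2 FPKM in WT and 830 ± 63.8 FPKM in Apelin-KO ECs, and Rac1 was 533 ± 23.6 and 580 ± 27.1 FPKM (SD, n = 3 each), with overlap.

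**Figure D5:**
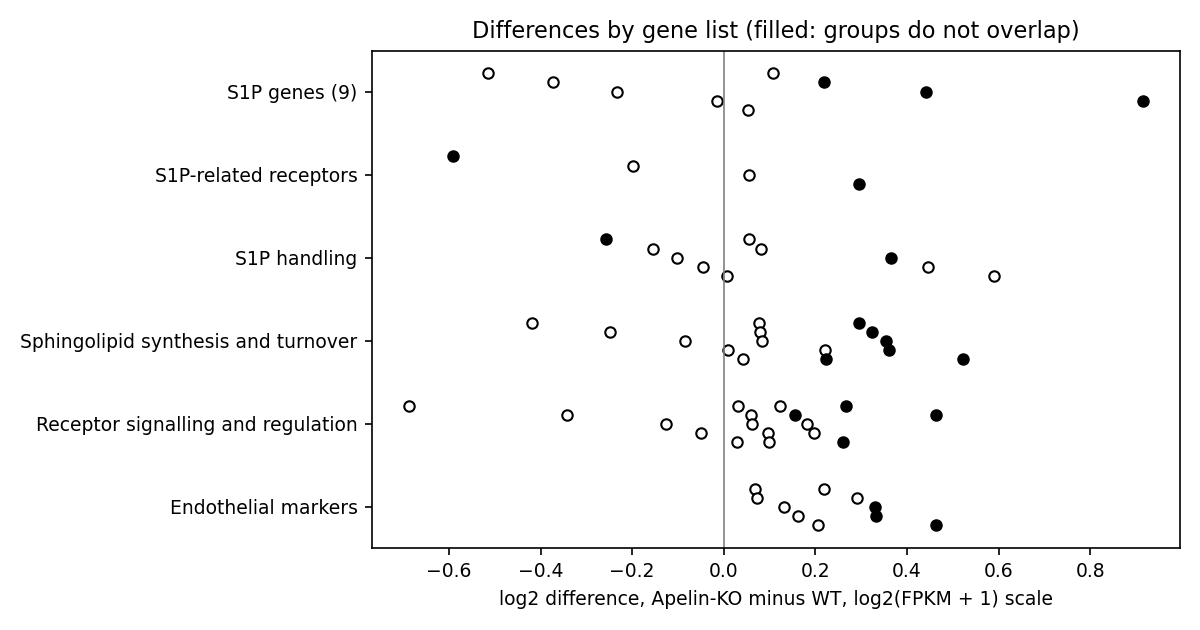
Log2 difference, Apelin-KO minus WT on the log2(FPKM + 1) scale, of each gene in the 9 S1P genes, the 4 pathway lists and the endothelial markers, 1 point per gene whose mean reached 1 FPKM. Filled points are genes whose groups do not overlap. S1pr3 is the point farthest to the right at 0.92, and all 10 endothelial markers lie above 0.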

How the data were processed

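Global transcript expression was measured in CD31+ CD45- cells sorted from MC38 tumors, in 3 samples from WT and 3 from Apelin-KO mice. The authors made stranded mRNA libraries, sequenced 75-base single reads and mapped them to mm10 (TopHat, Bowtie2, SAMtools). Cufflinks 2.2.1 gave the FPKM. The submitters' processing notes and the methods of the study name different versions of the mapping tools. The deposited FPKM, 1 value per gene symbol, were used as log2(FPKM + 1). A gene was fitted if its mean over the 6 samples reached 1 FPKM, using limma 3.58.1 in R 4.3.3 (two-sided moderated test, Apelin-KO minus WT, no block), and Benjamini-Hochberg adjustment ran over all 10964 genes. Tested on simulated data of this comparison with 200 of 10964 genes changed 4-fold, 94.5% of those were called. This share does not carry over to smaller or fewer changes. In the real data the median absolute log2 difference was 0.12 over all genes tested. For 3742 genes with 1 transcript in GENCODE M21 (GRCm38), low FPKM tend to be multiples of what a single read adds, and this spacing gave the depth, with 200-base fragments assumed. Of these low values 65.15% to 67.23% were whole reads to within 0.1, where an even spread would give 20%. The depth was chosen on these same values, which raises this share, so it is no test of the depth. No count test was run on estimated reads.

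The members and lists were chosen with earlier results of these data known. S1pr3 was the reason for choosing the family in this same contrast, so the members' differences are given without a p-value. The genes named outside the family are those of a list whose groups do not overlap with a log2 difference of at least 0.3 and, where fewer than 2 of a list qualify, its 2 highest by mean FPKM, as well as the 5 most like S1pr3 and S1pr1, and Apln. They are named only where a result turns on them. Acer3, Apom, Gna11, Adrbk1, Klf2, Ptprc, Des, Myh11, Pdgfrb, Cspg4, Tagln, Egfl7, Emcn, Fap and S1pr5 were named after their values were seen. Alternatives changed the pseudocount, the filter, the scaling, the variance model, the sample weights, the block and the samples included. Nothing in the labels pairs mice by number. Other values were computed in Python 3.11.15 (pandas 2.3.3, scipy 1.17.1).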

Additional observations from a re-analysis of the deposited data

How the results depend on the processing

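The differences of S1pr2, S1pr3, Spns2, Sgpl1 and Sgpp1 kept their sign under every alternative run, with S1pr3 between 0.78 and 1.58. The filters, the intensity trend and the replicate block cannot change a log2 difference with 3 samples against 3, although they are counted among the alternatives. For members without overlap, leaving out a sample cannot change the sign either, so a kept sign there carries no sign of stability. S1pr1 changed sign in 1 of 18, Sphk2 in 2 of 18, S1pr4 in 4 of 17 and Sphk1 in 4 of 17 alternatives. With a mean of at least 5 FPKM required, S1pr3, S1pr4 and Sphk1 gave no value. With a pseudocount of 0.1 or 0.01 in place of 1, the log2 difference of S1pr3 was 1.48 or 1.58, since a smaller pseudocount shrinks the difference of a low gene less. Scaling to the summed FPKM of the endothelial markers, or to their geometric mean, was chosen after seeing the data and moved the median of all genes tested to -0.18 or -0.19. The log2 difference was then 0.0035 or -0.0083 for S1pr1, -0.084 or -0.095 for Sphk2 and 0.23 or 0.22 for Spns2, and 1 member, S1pr3, had groups that did not overlap, higher in Apelin-KO, in place of 3.

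Scaled to the same summed FPKM, 2 members did not overlap, S1pr3 and Spns2. Leaving out 1 sample at a time, 3 to 6 members had groups that did not overlap, with 3 to 4 of them higher in Apelin-KO; since removing a sample can only add to such members, this range carries no sign of stability. Genes passing the adjusted threshold in limma, 1 in the comparison as described, numbered 2 under a pseudocount of 0.01, no filter, a mean of at least 5 FPKM or an intensity trend. They numbered 0 to 3 with each sample left out, with 0 without WT 2 or without Apelin-KO 2, where 538 and 1169 genes had an unadjusted p-value under 0.05. The cause of these shifts was not tested. No gene of the pathway or marker lists passed the adjusted threshold under the alternatives in which they were counted, that is, all but the endothelial scalings, and 2 (without WT 2) to 14 (intensity trend) pathway genes had an unadjusted p-value under 0.05, with 3 under either endothelial scaling. Between 7 and 9 of the 9 members kept their rank by mean FPKM. With the replicate block, 1 gene was called, and the log2 difference of S1pr3, which the block cannot change, was 0.92 (SE 0.14). Deviations of same-numbered samples correlated at -0.14, 0.21 and -0.02, so the numbers were not taken as pairs. FPKM near 1 rest on few reads, which limits S1pr3 and Sphk1 most.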
